A study of Mus musculus with 18 samples.

Results

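The Klk1 family of mouse tissue kallikreins was read in whole testis on 23 probes of 45281 on the array. A probe was taken as a member where its annotation named Klk1 or a symbol made of Klk1b and a number. The 23 probes stood for 12 genes, of 19057 genes with a named probe, namely Klk1, Klk1b1, Klk1b5, Klk1b8, Klk1b9, Klk1b11, Klk1b16, Klk1b21, Klk1b22, Klk1b24, Klk1b26 and Klk1b27. Of these, 16 probes for 9 genes had a detection p under 0.01 on at least 4 arrays and entered the tests. The other 7 probes, for Klk1b1, Klk1b11 and Klk1b16 and 1 each for Klk1b5 and Klk1b9, were detected on 0 of 18 arrays. Klk1b3 and Klk1b4 had no named probe, and only their promoter windows are described.

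The study compared testes of mice with changed receptors for follicle-stimulating hormone (Fshr) and luteinising hormone (Lhr), to ask which testicular genes each hormone governs and how the 2 pathways interact. There were 5 arrays labelled Fshr mutant/Lhr null, which carry both changes, 5 labelled Lhr null, 4 labelled Fshr mutant and 4 labelled wild type. Mice of all groups were 12 weeks old and of an FVB/N x C57/BL6 cross. The array columns call the Fshr change Fshr-CAM, and the sources used here do not give the promoter or cell type that drives this allele. The labels do not state that the arrays of a group came from separate animals, so the p-values rest on the spread among these arrays, which may be technical.

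Kallikreins of this family are trypsin-like serine proteases, secreted as inactive precursors, and their genes lie side by side on mouse chromosome 7 with closely similar sequences. Klk1 is the kallikrein that cuts kininogen to release kinin peptides, while several Klk1b enzymes are known from the mouse salivary gland as processing enzymes of epidermal growth factor, nerve growth factor or renin. Klk1b21, Klk1b24 and Klk1b27 are known as proteases of mouse Leydig cells, the interstitial cells that make testosterone when luteinising hormone binds its receptor.

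The arrays had 15482 to 18950 detected probes each, and the median number of beads behind a probe was 40 to 43. The lowest detected level on an array was 5.12 to 5.71 on the log2 intensity scale. Lhcgr, the gene of the luteinising hormone receptor, had 0 named probes, so its loss could not be read. Fshr had log2 levels of 8.84, 5.68, 8.61, 9.25 and 8.45 on the 5 Fshr mutant/Lhr null arrays, 7.57 to 8.34 on Lhr null arrays and 8.44 to 8.74 on Fshr mutant arrays, against 5.16 to 5.85 on wild type arrays. Replicate 2 of the Fshr mutant/Lhr null group therefore lay within the wild type range and is named below only by its label. Of 8 genes that mark epididymal epithelium, 0 had a probe past the detection filter. Of 9 salivary gland markers, Amy1, Dcpp1 and Egf did, and Smr3a, Smr2, Prol1 and Bpifa2 did not.

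The promoter windows show how alike these genes are in sequence around their start sites. Transcripts and probe sequences were not compared. The RefSeq table for GRCm38.p6 holds 14 family genes, all on the plus strand, and a window of 250 bases before to 50 after the start was matched for all 14. Among the 91 pairs of windows the identity in aligned columns was 76.33% to 97.74%, with a median of 83.33%. The pair with the highest identity was Klk1b21 and Klk1b24, whose 265 shared columns held 6 mismatches. Klk1b27 matched Klk1b21 at 92.83% and Klk1b24 at 89.69%, whereas Klk1b22 matched Klk1b21 at 78.29%. Windows of 3 genes whose probes followed one another closely across the arrays (Klk1b21, Klk1b24 and Klk1b27) and of 2 whose probes followed another course (Klk1b26 and Klk1b8) are shown. They are, on the plus strand, chr7:44102042-44102341, chr7:44187986-44188285, chr7:44052040-44052339, chr7:44012428-44012727 and chr7:43950416-43950715, in the order of the lines. Capitals mark bases that differ from the Klk1b21 window in its pairwise alignment, so the Klk1b21 line has none.
Klk1b21: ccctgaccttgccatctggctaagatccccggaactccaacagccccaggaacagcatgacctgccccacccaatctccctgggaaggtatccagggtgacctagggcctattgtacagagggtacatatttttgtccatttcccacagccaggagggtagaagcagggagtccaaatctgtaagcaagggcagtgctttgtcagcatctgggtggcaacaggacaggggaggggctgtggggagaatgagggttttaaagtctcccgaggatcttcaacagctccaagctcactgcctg
Klk1b24: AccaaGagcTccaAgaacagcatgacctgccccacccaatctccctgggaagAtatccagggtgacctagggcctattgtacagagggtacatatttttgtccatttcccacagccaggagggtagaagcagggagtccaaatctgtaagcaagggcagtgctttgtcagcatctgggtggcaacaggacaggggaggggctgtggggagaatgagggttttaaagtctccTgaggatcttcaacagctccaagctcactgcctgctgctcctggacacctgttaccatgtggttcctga
Klk1b27: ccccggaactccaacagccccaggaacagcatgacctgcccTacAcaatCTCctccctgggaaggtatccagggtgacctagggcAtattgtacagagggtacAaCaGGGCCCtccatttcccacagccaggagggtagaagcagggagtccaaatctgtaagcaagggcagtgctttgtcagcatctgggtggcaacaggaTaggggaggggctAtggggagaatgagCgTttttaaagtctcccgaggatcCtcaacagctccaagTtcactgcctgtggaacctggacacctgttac
Klk1b26: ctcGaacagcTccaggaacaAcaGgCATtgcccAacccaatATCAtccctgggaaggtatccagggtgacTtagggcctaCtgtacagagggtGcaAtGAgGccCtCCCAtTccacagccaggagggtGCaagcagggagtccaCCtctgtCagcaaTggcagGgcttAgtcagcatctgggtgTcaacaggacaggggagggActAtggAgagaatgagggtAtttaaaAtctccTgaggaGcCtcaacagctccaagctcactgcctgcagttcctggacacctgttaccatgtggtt
Klk1b8: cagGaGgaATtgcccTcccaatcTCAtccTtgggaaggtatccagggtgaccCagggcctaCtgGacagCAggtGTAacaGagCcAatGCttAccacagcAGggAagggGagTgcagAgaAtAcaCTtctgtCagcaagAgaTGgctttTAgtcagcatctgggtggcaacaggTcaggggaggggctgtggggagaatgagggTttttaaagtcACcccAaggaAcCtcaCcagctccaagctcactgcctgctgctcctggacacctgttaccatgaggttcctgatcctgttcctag

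A TATA-like box, taken as the letters TTTAAA and the same on both strands, stood in 13 of the 14 family windows, and in 13.2% of all 32851 promoter windows. Its position was 4 bases after the annotated start in Klk1b21, 13 before it in Klk1b3 and 17 before it in Klk1b27. In the other windows that held it, it lay 26 to 48 bases before the start. The Klk1 window, which lacked it, ended at the letters that come just before the box in the Klk1b21 window. The nuclear receptor half-site AGGTCA or its reverse TGACCT was in 11 of 14 windows, against 16.3% of all windows. The androgen and glucocorticoid receptor half-site AGAACA or its reverse TGTTCT was in 2 of 14 windows, those of Klk1b24 and Klk1b3, against 19.0% of all. The cAMP response element TGACGTCA was in 0 of 14 windows, against 1.79% of all. None of these motifs contains another. The family windows share ancestry, so their counts are not independent. These are matches of letters in a short window and say nothing of binding.

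Levels of the detected members fell into 2 courses, which were set apart after their values were seen. Klk1b21, Klk1b22, Klk1b24 and Klk1b27, read by 8 probes, varied widely among wild type arrays and were intermediate or low in Fshr mutant/Lhr null testes. Klk1b8, Klk1b26, Klk1b9, Klk1b5 and Klk1, also read by 8 probes, varied less among wild type arrays, with an SD of 0.06 to 0.55 on the log2 scale, and stood near the wild type level in Fshr mutant/Lhr null testes. All 16 probes had their lowest mean level in Lhr null testes, where 7 of them were detected on no array.

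**Figure D1:**
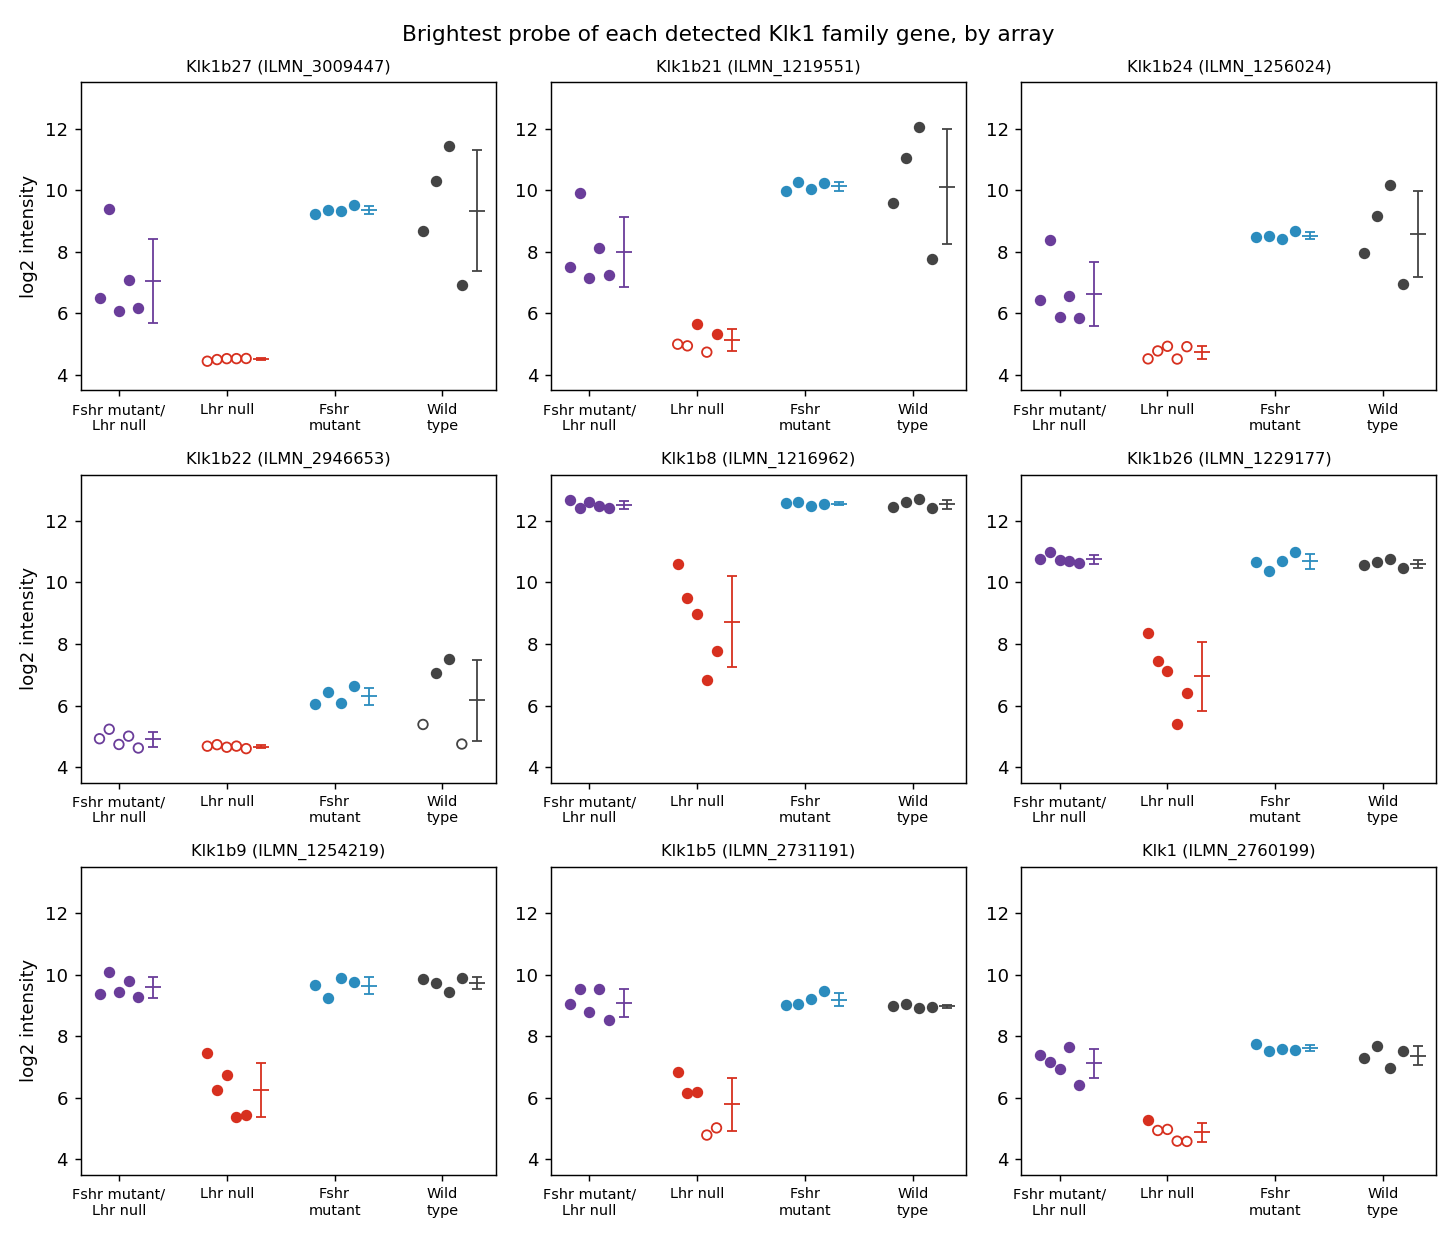
Log2 intensity (background-corrected, quantile-normalised) of the brightest probe of each of the 9 detected Klk1 family genes, by genotype group; each point is 1 array, filled where the probe was detected (p under 0.01) and open where it was not, and the bar is the mean with its SD. The Klk1b21, Klk1b27 and Klk1b24 probes spread over 7.78 to 12.06, 6.93 to 11.42 and 6.96 to 10.18 among wild type arrays, while Klk1b8 lay between 12.40 and 12.71 there.

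Klk1b21 shows the first course. On its brightest probe, ILMN_1219551, the deposited intensity was 199, 988, 154, 250 and 158 on Fshr mutant/Lhr null arrays 1 to 5 and 65.0, 65.3, 84.6, 62.2 and 76.5 on Lhr null arrays. It was 1109, 1278, 1170 and 1168 on Fshr mutant arrays, against 821, 1764, 7413 and 286 on wild type arrays. The 4 wild type arrays thus differed 25.9-fold in deposited intensity, and the 4 Fshr mutant arrays 1.15-fold. The Fshr mutant values lay inside the wild type range, no Lhr null value reached any other group, and the array with the label Fshr mutant/Lhr null replicate 2 stood above its 4 companions. The mean log2 level was 7.98 ± 1.13 in Fshr mutant/Lhr null testes (SD, n = 5), 5.13 ± 0.36 in Lhr null testes (SD, n = 5) and 10.12 ± 0.15 in Fshr mutant testes (SD, n = 4), against 10.11 ± 1.86 in wild type testes (SD, n = 4).

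Klk1b27, on probe ILMN_3009447, had log2 levels of 6.49, 9.40, 6.09, 7.10 and 6.18 in Fshr mutant/Lhr null testes and 4.45 to 4.54 in Lhr null testes, where it was detected on 0 of 5 arrays. In Fshr mutant testes it had 9.23, 9.35, 9.34 and 9.52, against 8.67, 10.30, 11.42 and 6.93 in wild type testes. Klk1b24, on probe ILMN_1256024, had 6.43, 8.37, 5.90, 6.57 and 5.86 in Fshr mutant/Lhr null testes and no Lhr null array detected it. In Fshr mutant testes Klk1b24 had 8.50, 8.51, 8.41 and 8.67, against 7.98, 9.15, 10.18 and 6.96 in wild type testes. Both genes ranked the 4 wild type arrays as Klk1b21 did, with replicate 3 highest and replicate 4 lowest. The same held for all 8 probes of this course, each of which was highest on wild type array 3, lowest on wild type array 4 and highest in its group on the array with the label Fshr mutant/Lhr null replicate 2. Their SD on the log2 scale was 1.32 to 1.96 in wild type testes and 0.10 to 0.29 in Fshr mutant testes.

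Klk1b22, an epidermal growth factor-binding protein of the mouse, was the member of this course detected on the fewest arrays. Its only probe was detected on 0 of 5 Fshr mutant/Lhr null arrays, 0 of 5 Lhr null arrays, 4 of 4 Fshr mutant arrays and 2 of 4 wild type arrays. Its log2 level was 6.04, 6.43, 6.09 and 6.64 on Fshr mutant arrays, against 5.39, 7.06, 7.51 and 4.75 on wild type arrays. The 2 wild type arrays that detected it were the 2 with the highest Klk1b21 level.

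Klk1b8 shows the second course. Its log2 level was 12.66, 12.40, 12.62, 12.47 and 12.43 in Fshr mutant/Lhr null testes and 10.58, 9.49, 8.97, 6.82 and 7.77 in Lhr null testes. It was 12.57, 12.60, 12.49 and 12.55 in Fshr mutant testes, against 12.44, 12.60, 12.71 and 12.40 in wild type testes. The Lhr null values lay below those of the other groups, which overlapped, and had an SD of 1.47. Klk1b26, another epidermal growth factor-binding protein that can also cut prorenin, followed on probe ILMN_1229177 with 10.75, 11.00, 10.74, 10.69 and 10.61 in Fshr mutant/Lhr null testes and 8.36, 7.44, 7.13, 5.41 and 6.40 in Lhr null testes. It had 10.66, 10.38, 10.69 and 11.00 in Fshr mutant testes, against 10.56, 10.66, 10.76 and 10.46 in wild type testes. The array with the label Fshr mutant/Lhr null replicate 2 had the lowest Klk1b8 and the highest Klk1b26 level of its group.

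Klk1b9, also an epidermal growth factor-binding protein, Klk1b5 and Klk1 took the same course. In Lhr null testes Klk1b9 on ILMN_1254219 was detected on 5 of 5 arrays and Klk1b5 on ILMN_2731191 on 3 of 5. Klk1b9 on probe ILMN_1254219 averaged 9.59 ± 0.34 in Fshr mutant/Lhr null and 6.25 ± 0.88 in Lhr null testes (SD, n = 5 each), and 9.63 ± 0.27 in Fshr mutant against 9.73 ± 0.20 in wild type testes (SD, n = 4 each). Klk1b5 on probe ILMN_2731191 averaged 9.09 ± 0.45 and 5.80 ± 0.86 in Fshr mutant/Lhr null and Lhr null testes, and 9.19 ± 0.20 in Fshr mutant against 8.96 ± 0.06 in wild type testes. Klk1 averaged 7.11 ± 0.46 in Fshr mutant/Lhr null, 4.87 ± 0.29 in Lhr null and 7.60 ± 0.10 in Fshr mutant testes, against 7.36 ± 0.31 in wild type testes. A single Lhr null array detected it, as did all 13 arrays of the other groups. Among the 5 Lhr null arrays the 8 probes of this course were all highest on replicate 1, and 6 of the 8 were lowest on replicate 4.

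Lhr null testes had lower levels of every detected member than wild type testes. Limma's moderated test called 16 of 16 probes lower at an adjusted p under 0.05 (Benjamini-Hochberg over 19076 probes), where 27.4% of all probes tested were called lower and 68.8% were called in either direction. The median difference over the 16 probes was -3.40 on the log2 scale, beside 0.17 over all probes tested. With the 7 probes that no Lhr null array detected set at their bounds it was -3.23. Those 7 passed the filter only on arrays of other genotypes, so they could hardly come out higher in Lhr null testes. Counts over all 16 probes rest in part on this. The groups did not overlap for any of the 16 probes, which held with the Lhr null side lower for 22.2% of all probes. Klk1b8 differed by -3.81 ± 0.47 (SE, adjusted p = 1.35e-06), Klk1b26 on ILMN_1229177 by -3.66 ± 0.37 (SE, adjusted p = 1.33e-07) and Klk1 by -2.49 ± 0.21 (SE, adjusted p = 1.74e-08). Klk1 was detected on 1 of 5 Lhr null arrays, so the size of its difference depends on the background level. It ran from -2.85 to -1.46 across the alternative settings. Klk1b21 on ILMN_1219551, still detected on 2 of 5 Lhr null arrays, differed by -4.98 ± 0.64 (SE, adjusted p = 1.96e-06), by -4.31 without wild type array 3 and by -5.74 without wild type array 4. The size of this difference also depends on the background level, and ran from -5.74 to -3.80 across the alternative settings. Where no Lhr null array detected a probe, only a bound can be given, taken against the lowest detected level of each array. Klk1b27 was at least 16.6-fold lower on ILMN_3009447 (adjusted p = 7.68e-06), a bound that was 10.3-fold without wild type array 3 and 29.0-fold without array 4, and at least 11.0-fold lower on ILMN_1252131 (adjusted p = 3.93e-06). Klk1b24 was at least 9.80-fold lower on ILMN_1256024 (adjusted p = 3.18e-06). The same calculation gave 1.87-fold lower for Klk1b22 (adjusted p = 0.00196). Only 2 of 4 wild type arrays detected Klk1b22, so this figure is not a strict bound.

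In whole testis, fewer cells of a type and less RNA per cell cannot be told apart. The summed intensity of 5 adult Leydig markers past the filter, of 8 listed, was 948 to 1871 in Lhr null testes against 13286 to 18699 in wild type testes, and all 5 (Insl3, Cyp17a1, Cyp11a1, Hsd17b3 and Star) were called lower. Insl3, a Leydig cell hormone that guides testis descent, differed by -3.59 and Cyp17a1, an androgen synthesis enzyme, by -4.40 on the log2 scale. The summed intensity of 5 spermatid markers, of 6 listed, was 15327 to 39902 in Lhr null testes against 34628 to 51618 in wild type testes, and all 5 were called lower. The sum of 6 Sertoli markers was 13933 to 19331 in Lhr null testes against 6552 to 8014 in wild type testes, with 5 called higher and Rhox5, an androgen-dependent homeobox gene, called lower, with a difference of -2.21. Cldn11, a tight junction protein, gave most of that sum, with a mean log2 level of 13.55 in Lhr null and 12.31 in wild type testes. The sum of 4 spermatogonial markers was 3051 to 4612 in Lhr null against 1265 to 1571 in wild type testes, with 3 called higher. Of all 19076 probes, 13123 were called in this comparison, 5236 of them lower and the rest higher. The sum of 3 macrophage markers was 583 to 1808 in Lhr null against 3707 to 4235 in wild type testes, with 1 called lower. Aif1 made up most of the macrophage sum, with a mean log2 level of 9.58 in Lhr null and 11.87 in wild type testes. The dimmer markers had 5.72 and 6.18 (Csf1r) and 5.23 and 5.80 (Adgre1). The part of these lists in the kallikrein differences was not tested.

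Fshr mutant and wild type testes gave no kallikrein call. Limma called 0 of 16 family probes, with 0% of all 19076 probes called in this comparison and a smallest adjusted p of 0.0651 among them. At an unadjusted p under 0.05 there were 0 family probes and 783 of all probes. The differences ran from -0.17 for Klk1b9 on ILMN_2784773 to 0.25 for Klk1b5 on ILMN_1255129 on the log2 scale. For Klk1b21 on ILMN_1219551 the difference was 0.01 ± 0.67 (SE), with a 95% interval of -1.40 to 1.42, so that a change of more than 2-fold in either direction lay within the interval. For Klk1 the interval was narrower, at -0.22 to 0.69.

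Fshr mutant/Lhr null testes had higher levels of most detected members than Lhr null testes. Of the 16 probes, 13 were called higher and 3 were not called, where 30.1% of all probes tested were called higher and 72.6% in either direction. The median difference over the 16 probes was 2.55 on the log2 scale, beside -0.16 over all probes, and 2.40 with the 7 probes that no Lhr null array detected at their bounds, or at 0 where no bound could be given. Those 7 passed the filter only on arrays of other genotypes, so they could hardly come out lower here. All 8 probes of Klk1b8, Klk1b26, Klk1b9, Klk1b5 and Klk1 rose, by 2.24 to 3.81 on the log2 scale, without overlap of the groups, which held with the Fshr mutant/Lhr null side higher for 23.3% of all probes. Klk1b26 on ILMN_1229177 rose by 3.81 ± 0.35 (SE, adjusted p = 3.42e-08), Klk1b8 by 3.79 ± 0.45 (SE, adjusted p = 6.03e-07) and Klk1 by 2.24 ± 0.19 (SE, adjusted p = 1.88e-08). For Klk1 the rise was 1.28 to 2.57 across the alternative settings. Klk1b21 on ILMN_1219551 rose by 2.85 ± 0.60 (SE, adjusted p = 0.000359), and by 1.87 to 3.09 across the alternative settings. Klk1b27, not detected on any Lhr null array, was at least 3.44-fold higher on ILMN_3009447 (adjusted p = 0.00202), and Klk1b24 at least 2.56-fold higher on ILMN_1256024 (adjusted p = 0.00185). Both bounds use all 5 Fshr mutant/Lhr null arrays. They would be lower without the one labelled replicate 2, the highest of its group on both probes. Across the alternative settings the fitted rises were 1.51 to 2.89 and 1.06 to 2.24 on the log2 scale, and both probes were called in each.

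The 3 probes not called were Klk1b22 and the other 2 of Klk1b21. Klk1b21 on ILMN_2651099 and ILMN_2732087 was detected on 1 of 5 Fshr mutant/Lhr null arrays, the one labelled replicate 2, and on 0 of 5 Lhr null arrays. Their adjusted p was 0.203 and 0.261. The second Klk1b24 probe, ILMN_2622463, was called higher (adjusted p = 0.0189), by 1.46-fold in the calculation used for bounds. Only 3 of 5 Fshr mutant/Lhr null arrays detected it, so this figure is not a strict bound. The probe missed the threshold once the array with the label Fshr mutant/Lhr null replicate 2 was left out (adjusted p = 0.0606). It also did so with an offset of 50 (0.0805), with no filter on dim probes (0.0529) and with array weights (0.0589). With that array left out, 12 of the 16 probes were called. The intensity sum of the 5 Leydig markers was 3702, 10828, 3335, 4395 and 3217 on Fshr mutant/Lhr null arrays 1 to 5, against 948 to 1871 in Lhr null testes. The sum of the 5 spermatid markers was 42714 to 46943 in Fshr mutant/Lhr null testes against 15327 to 39902 in Lhr null testes. Of these markers, 2 Leydig genes (Insl3 and Cyp17a1) and all 5 spermatid genes were called higher. Neither list was tested for its part in the kallikrein differences.

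**Figure D2:**
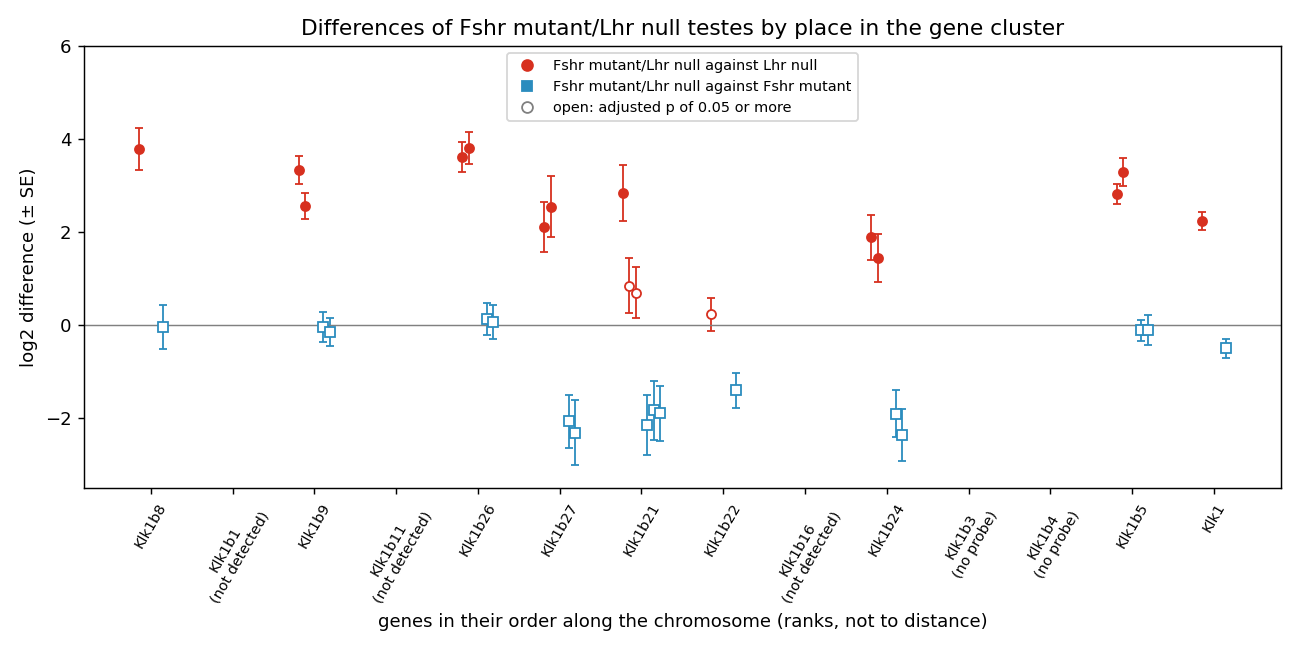
Log2 difference with its SE for each detected probe, Fshr mutant/Lhr null against Lhr null (circles) and against Fshr mutant (squares), with the genes in their order along chromosome 7 and filled symbols where the adjusted p was under 0.05. Klk1b27, Klk1b21 and Klk1b24, in the middle of the row, had differences of -2.36 to -1.83 from Fshr mutant testes, while those of the genes on either side were -0.49 to 0.13. The circles of Klk1b27, Klk1b24 and Klk1b22, the 2 open circles of Klk1b21 and the square of Klk1b22 are fitted differences that involve a group with no detected array.

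Against Fshr mutant testes, mean levels of Klk1b21, Klk1b24 and Klk1b27 were lower in Fshr mutant/Lhr null testes, but no member passed the test. The courses were set apart by levels in these groups, so their contrast here is a description. Limma called 0 of 16 family probes, and 0.0367% of all probes tested in either direction and 0.0315% as lower, in this comparison. At an unadjusted p under 0.05 there were 9 family probes, the 8 of Klk1b21, Klk1b22, Klk1b24 and Klk1b27 and that of Klk1, and 1203 of all probes. Klk1b24 on ILMN_2622463 differed by -2.36 ± 0.55 (SE, adjusted p = 0.212), Klk1b27 on ILMN_3009447 by -2.31 ± 0.69 (SE, adjusted p = 0.438) and Klk1b21 on ILMN_1219551 by -2.14 ± 0.64 (SE, adjusted p = 0.438) on the log2 scale. Klk1b22, which no Fshr mutant/Lhr null array detected, was at least 1.63-fold lower (adjusted p = 0.34). For 6 of those 8 probes the groups did not overlap, with the Fshr mutant/Lhr null side lower, as for 1.34% of all probes. Klk1b8 differed by -0.04 ± 0.47 (SE) with a 95% interval of -1.03 to 0.95, and Klk1b26 on ILMN_1229177 by 0.07 ± 0.37 (SE) with an interval of -0.70 to 0.85. Without the array with the label Fshr mutant/Lhr null replicate 2, 4 probes were called lower, both of Klk1b24 and both of Klk1b27, with adjusted p of 0.00632 to 0.0418. When, in addition, only these 2 groups were fitted, all 8 probes of the first course were called, with adjusted p of 4.24e-05 to 0.00301. The second of these fits was chosen after the data were seen, and its count over all probes is not given here, so its 8 calls have no share beside them. The array left out was the highest of its group on all 8 probes of the first course, so both counts are descriptions. Over the fits that left out 1 array each, 1 to 81 of all probes were called in this comparison.

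Against wild type testes, the Fshr mutant/Lhr null levels gave 0 calls among 16 family probes, where 0.860% of all probes were called and 0.566% were called lower. At an unadjusted p under 0.05 there were 8 family probes, all of the first course, and 3200 of all probes. The 7 of them for Klk1b21, Klk1b24 and Klk1b27 had differences of -2.28 to -1.84 on the log2 scale with adjusted p of 0.0632 to 0.146. For Klk1b22 the calculation used for bounds gave 1.49-fold lower (adjusted p = 0.117). This is not a strict bound, since only 2 of 4 wild type arrays detected Klk1b22. The groups overlapped for all 8, where 3.77% of all probes had the Fshr mutant/Lhr null side lower without overlap. The 8 probes of the second course had differences of -0.30 to 0.29, with adjusted p of 0.561 to 0.989. The first count rested on single arrays: 6 probes were called lower without the array with the label Fshr mutant/Lhr null replicate 2, and 8 without wild type replicate 4, the wild type array with the lowest levels. The count over all probes moved too, with 13 to 274 called over the fits that left out 1 array each, against 164 with all arrays. In the same comparison all 5 Leydig markers past the filter were called lower and 0 of 5 spermatid markers were called. Insl3 differed by -1.43 (adjusted p = 0.0362) and Cyp17a1 by -2.52 (adjusted p = 0.0078) on the log2 scale.

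The interaction compared the difference between Fshr mutant/Lhr null and Lhr null testes with that between Fshr mutant and wild type testes. It was called higher for 12 of 16 family probes, where 23.7% of all probes were called higher and 57.7% in either direction. The 8 probes of the second course had values of 2.00 to 3.77 on the log2 scale, with adjusted p of 6.22e-06 to 0.000137. Klk1b21 on ILMN_1219551 had 2.84 ± 0.90 (SE, adjusted p = 0.0122), the largest value of the first course, whose other 3 calls were Klk1b24 on ILMN_1256024 and both probes of Klk1b27. Those 3 were not called without wild type replicate 2 (adjusted p of 0.0597 to 0.0765) or without wild type replicate 3 (adjusted p of 0.0747 to 0.0945), which left 9 probes called. One or both Klk1b27 probes were also not called without Fshr mutant replicate 1, 2 or 3 or the array with the label Fshr mutant/Lhr null replicate 2 (adjusted p of 0.0506 to 0.0576). The Klk1b21 call was lost with no background correction (adjusted p = 0.0511) and with array weights (adjusted p = 0.0534). The other 3 calls were lost under both of these, and also with an offset of 50, with no filter on dim probes and on the authors' processed values (adjusted p of 0.0732 to 0.131). Since Klk1b24 and Klk1b27 were not detected in Lhr null testes, their interaction values depend on the background level there. The same holds for Klk1, Klk1b5 on ILMN_1255129 and Klk1b9 on ILMN_2784773, each detected on 1 of 5 Lhr null arrays. Klk1b21 on ILMN_1219551, detected on 2 of 5, is limited in the same way.

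Probes of Klk1b21, Klk1b24 and Klk1b27 followed one another across arrays, also with group means subtracted. Pearson's r of log2 levels over the 18 arrays was 0.933 to 0.998 for the 8 pairs of probes of the same gene. It was 0.949 to 0.998 for the 16 pairs of probes of different genes among Klk1b21, Klk1b24 and Klk1b27. With Klk1b22 added, the 23 such pairs of the first course had 0.874 to 0.998. It was 0.891 to 0.992 for the 25 pairs of different genes of the second course, and 0.424 to 0.835 for the 64 pairs with 1 probe from each course. The arrays share their genotype groups, so most of these coefficients carry the group differences. With each group's mean subtracted, r was 0.942 to 0.988 among the Klk1b21, Klk1b24 and Klk1b27 pairs, and 0.800 to 0.988 with Klk1b22 added. It was 0.183 to 0.960 for pairs of different genes of the second course, with a median of 0.75, and -0.472 to 0.362 for pairs across the courses, with a median of 0.05. The ranges of the second course and of the pairs across courses overlapped. Probes of the first course had SDs of 1.32 to 1.96 in wild type and 0.24 to 1.37 in Fshr mutant/Lhr null testes. Their SDs were 0.10 to 0.29 in Fshr mutant and 0.02 to 0.36 in Lhr null testes. The first course's coefficients about the group means thus rest mostly on the wild type and Fshr mutant/Lhr null arrays.

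**Figure D3:**
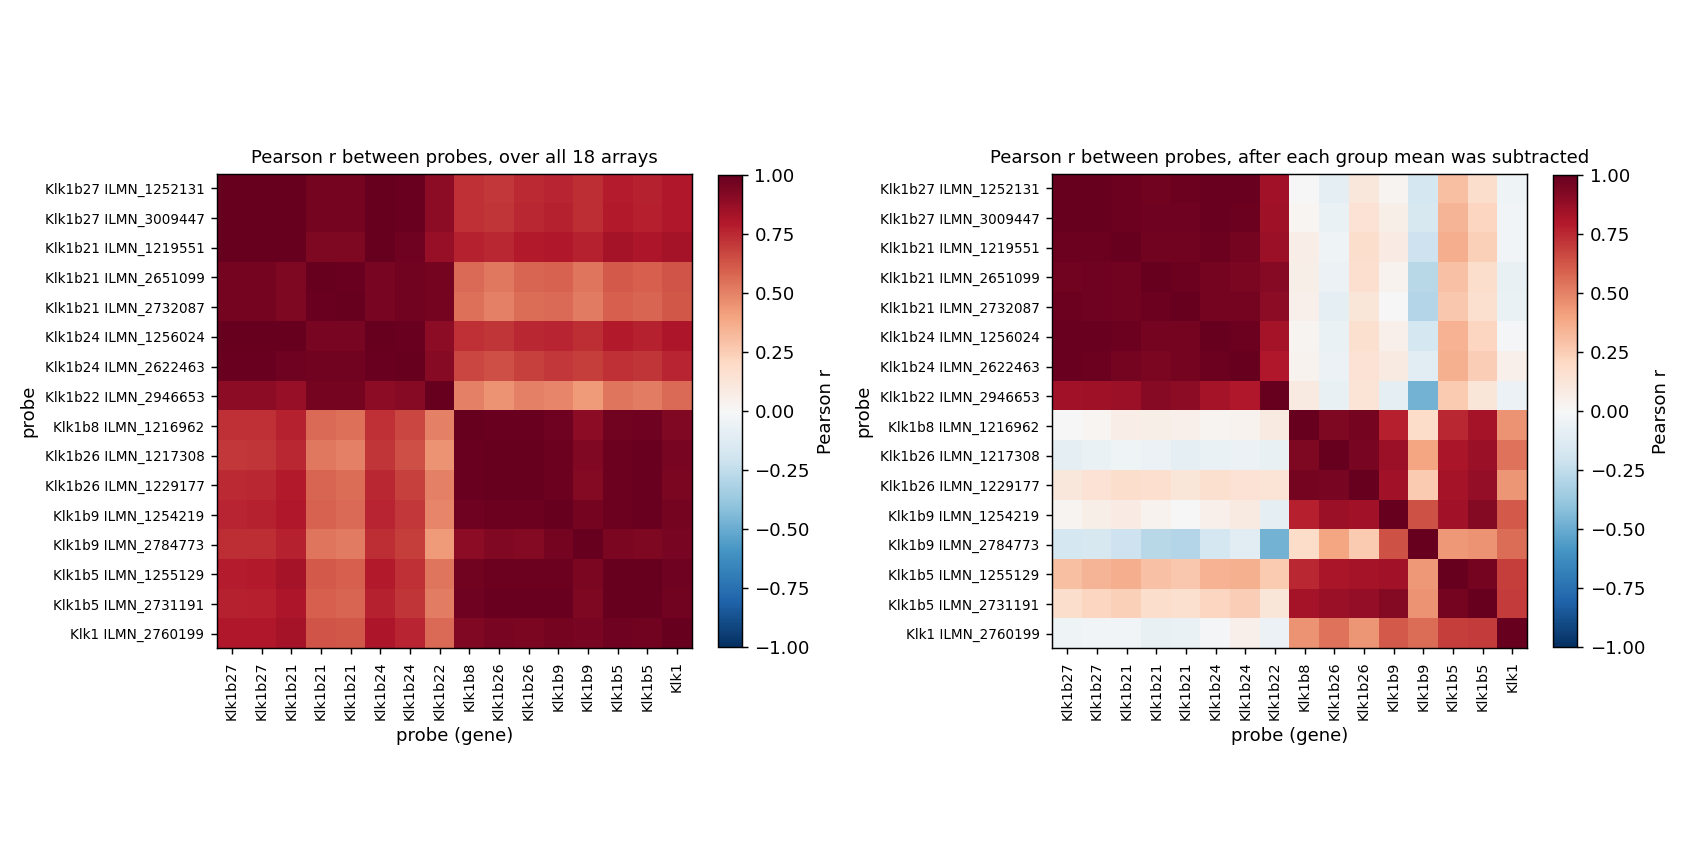
Pearson's r between the 16 detected Klk1 family probes over 18 arrays, on log2 levels (left) and after each group's mean was subtracted (right); both axes list the probes in the same order and the colour runs from -1 to 1. On the left the 8 probes of Klk1b27, Klk1b21, Klk1b24 and Klk1b22 form one block and the other 8 a second. On the right the coefficients between the blocks run from -0.472 to 0.362, and those between different genes of the second block reach down to 0.183, within that range.

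Whether each probe reads its own gene alone could not be settled, because the probes' sequences are not among the files used here. The following values bear on it. Over arrays that detected both probes of a pair, the SD of the log2 ratio was 0.12 to 0.33 for probes of the same gene and 0.18 to 0.46 for the 16 pairs among Klk1b21, Klk1b24 and Klk1b27, whose ranges overlap. Separate transcripts that moved together and 1 transcript bound by several probes cannot be told apart from these values. The same SD was 0.21 to 0.56 for pairs of different genes of the second course, which also overlaps that of same-gene pairs, and 0.70 to 2.01 for pairs across the courses. Between wild type arrays 3 and 4, where Klk1b21 on ILMN_1219551 had log2 levels of 12.06 and 7.78, Klk1b8 had 12.71 and 12.40, Klk1b26 on ILMN_1229177 had 10.76 and 10.46, and Klk1b5 on ILMN_2731191 had 8.90 and 8.94. Probes of Klk1b1, Klk1b11 and Klk1b16, whose genes lie in the same cluster, were detected on 0 of 18 arrays, with mean log2 levels of 4.35 to 4.79 in every group. Probes of 1 gene also disagreed in detection: ILMN_1224893 of Klk1b5 and ILMN_2723594 of Klk1b9 were detected on 0 of 18 arrays, although other probes of both genes were detected on 14 to 18. Klk1b21 was detected on 15 arrays by ILMN_1219551 and on 8 by each of its other 2 probes. The standard error over beads was 2.22% to 8.52% of the intensity across all 23 probes and 18 arrays.

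Along the chromosome, the members of the first course were neighbours. In the order of their start sites the genes ran Klk1b8, Klk1b1, Klk1b9, Klk1b11, Klk1b26, Klk1b27, Klk1b21, Klk1b22, Klk1b16, Klk1b24, Klk1b3, Klk1b4, Klk1b5 and Klk1, from chromosome 7 position 43950666 to 44225360 in GRCm38.p6. Klk1b27, Klk1b21, Klk1b22 and Klk1b24 held places 6, 7, 8 and 10, with the undetected Klk1b16 among them. Klk1b8, Klk1b9 and Klk1b26 lay on one side of them and Klk1b5 and Klk1 on the other. The pair of windows with the highest identity, Klk1b21 and Klk1b24, had Klk1b22 between them, whose window was less like Klk1b21 than the median pair. The RefSeq record of Klk1b21 starts at 44004616 and thus spans its neighbours Klk1b26 and Klk1b27, so its place here is that of its promoter window.

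Genes outside the family that followed each probe most closely over the 18 arrays also differed between the courses, with the same sharing of groups in their coefficients. For Klk1b27 on ILMN_1252131 they were led by Aldh1l1, a folate enzyme, at r of 0.971, then Kcnk1, a potassium channel, at 0.951 and Ephx1, an epoxide hydrolase, at 0.949. For Klk1b24 on ILMN_1256024 they were led by Aldh1l1 at 0.971 and Ephx1 at 0.955. Klk1b21 on ILMN_1219551 was led by Aldh1l1 at 0.959, and Cyp17a1 was among its 8 closest at 0.931. With group means subtracted, r with Klk1b24 was 0.93 for Ephx1 and 0.70 for Cyp17a1, resting mostly on the wild type and Fshr mutant/Lhr null arrays. For Klk1b8 the closest were 1700042G07Rik, Nudt16l2 and Oxct2b, each at 0.998. Oxct2b is a ketone body enzyme of the testis. Klk1b26 on ILMN_1217308 was led by Tmem269 at 0.997 and Odf3b, a relative of an outer dense fibre protein of the sperm tail, at 0.996.

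**Figure D4:**
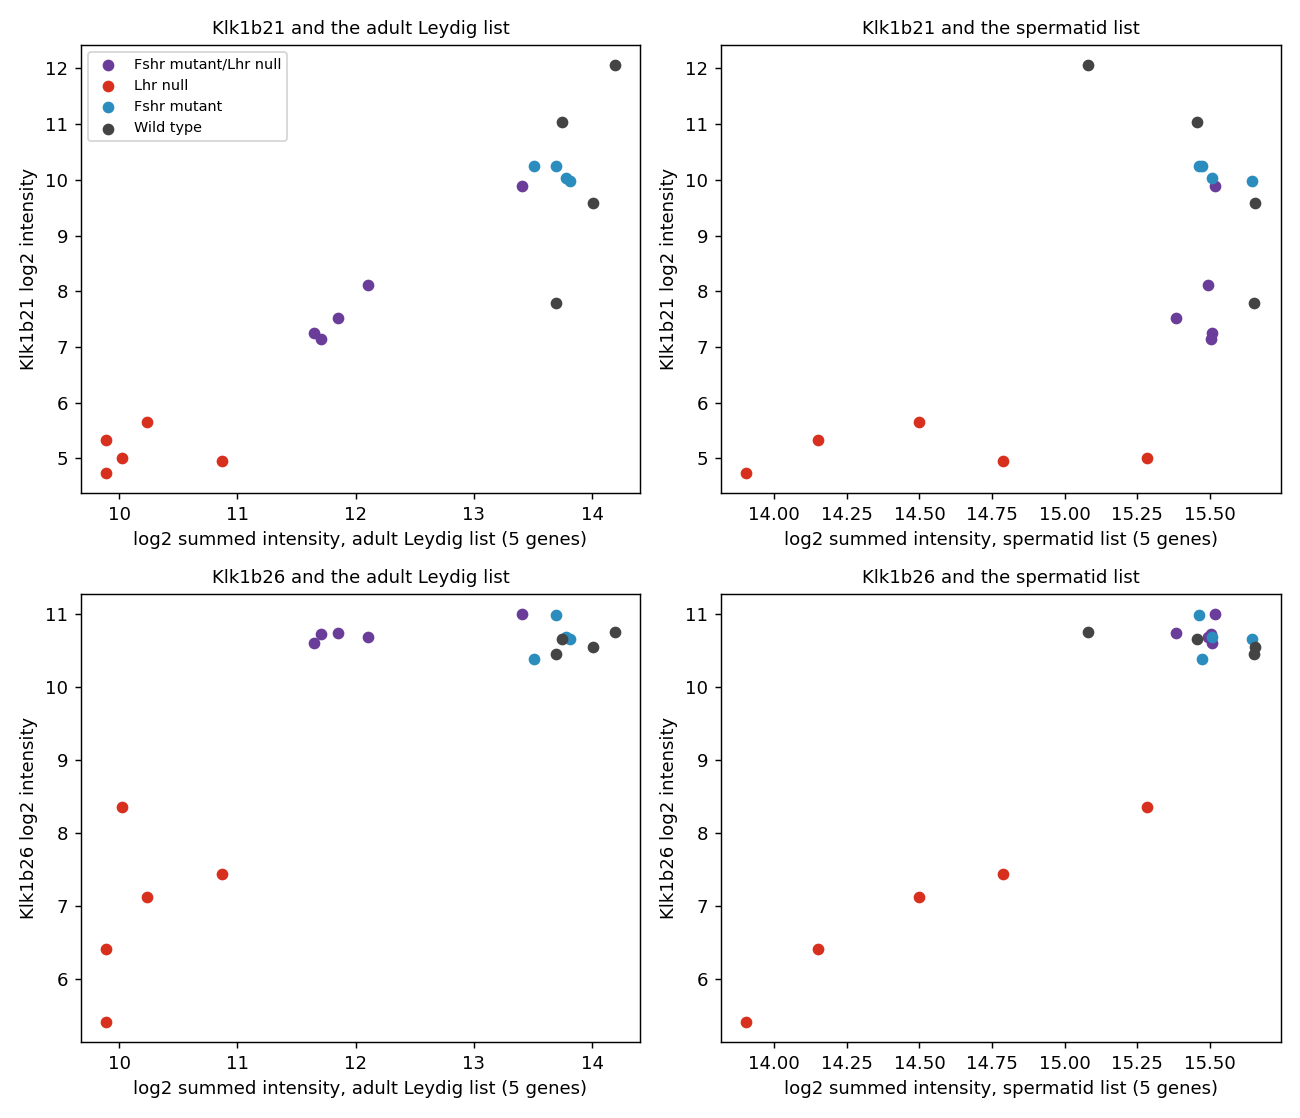
Log2 level of the brightest Klk1b21 probe (top) and Klk1b26 probe (bottom) against the log2 summed intensity of 5 adult Leydig markers (left) or 5 spermatid markers (right); each point is 1 of 18 arrays, coloured by group. The 4 wild type arrays lie at 13.70 to 14.19 on the Leydig axis while their Klk1b21 levels run from 7.78 to 12.06, and the 5 Lhr null arrays have the same order on the spermatid axis and in Klk1b26.

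The marker lists placed the arrays differently for each course. In wild type testes the Leydig sum was 16425, 13692, 18699 and 13286 on arrays 1 to 4. Arrays 3 and 4, with the highest and the lowest sum, also had the highest and the lowest level of all 8 probes of the first course. Klk1b21 on arrays 2 and 4 had log2 levels of 11.03 and 7.78 at Leydig sums of 13692 and 13286. On the array with the label Fshr mutant/Lhr null replicate 2 both the Leydig sum and the 8 probes of the first course were the highest of the group. In Lhr null testes the spermatid sum was 39902, 28287, 23171, 15327 and 18167 on arrays 1 to 5, the order in which Klk1b8 and Klk1b26 on ILMN_1229177 stood. Wild type array 3, with the highest Klk1b21 level, had a spermatid sum of 34628 against 44911 to 51618 on the other 3. These are values set side by side, and no cause was tested.

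Of the kinin pathway, 8 of 14 listed genes had a probe past the filter. In Lhr null against wild type testes 3 were called higher and 3 lower, with a median difference of 0.13 on the log2 scale, where 68.8% of all probes were called. Klkb1, plasma kallikrein, differed by -2.24 and Ace, which inactivates kinins, by -1.09, whereas Cpe, a carboxypeptidase, differed by 1.79. In Fshr mutant/Lhr null against Lhr null testes 4 were called higher and 3 lower, among them Kng1, the kininogen that Klk1 cuts, with a difference of 1.03 (adjusted p = 0.00684), Klkb1 with 2.23 and Cpe with -1.93. There 72.6% of all probes were called, and the share of the list was near that of all probes in each of these 2 comparisons. None of the 8 was called in Fshr mutant against wild type testes, and none in Fshr mutant/Lhr null testes against Fshr mutant or wild type testes. The probes of Bdkrb1 and Bdkrb2, the kinin receptors, did not pass the filter.

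Of 16 listed substrates and inhibitors of tissue kallikreins, 10 had a probe past the filter. In Lhr null against wild type testes 4 were called higher (Fn1, Igfbp3, Igfbp4 and Col4a1) and 2 lower (Serpina3n and Pebp1), again near the 68.8% of all probes. Igfbp4, an insulin-like growth factor-binding protein, differed by 1.14 and Serpina3n, a serine protease inhibitor, by -1.95 on the log2 scale. In Fshr mutant/Lhr null against Lhr null testes 1 was called higher (Pebp1) and 6 lower, near the 72.6% of all probes called, with a median difference of -0.99. Serpina5, the protein C inhibitor, had a difference of -0.96 there (adjusted p = 0.000403). Of the 3 salivary markers past the filter, Amy1, an amylase, and Dcpp1 were called lower in Lhr null against wild type testes, with differences of -2.19 and -0.55, and higher in Fshr mutant/Lhr null against Lhr null testes, with 1.06 and 0.52. Amy1 was also called lower in Fshr mutant/Lhr null against wild type testes, with -1.13. The kinin and substrate lists were chosen with earlier results of these arrays known, so their counts are descriptions. The other tissue kallikreins, Klk4 to Klk15, had 19 named probes, of which 0 passed the detection filter.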

How the data were processed

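Total RNA of whole testis was labelled with biotin and hybridised to 18 Illumina bead arrays, per the labels' protocols. The deposited table holds each probe's mean intensity before normalisation, a detection p-value, the bead number and the bead standard error. Per the submitters' processing notes it was summarised with GenomeStudio 1.7.0. The authors' processed intensity values, deposited as another table, served as an alternative only. Of the probes, 34885 had 1 gene symbol, 18 several and 10378 none, and 34807 symbols were kept or updated through the gene identifier.

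Background was corrected with normexp from the detection p-values (offset 16), followed by quantile normalisation and log2. Probes with a detection p under 0.01 on at least 4 arrays were kept (19076). Limma 3.58.1 in R 4.3.3 fitted 4 group means over all 18 arrays with eBayes, and calls were made at a Benjamini-Hochberg adjusted p of 0.05. A bound ("at least N-fold") sets a group's mean against the lowest detected level of each array of the other group. Where some arrays of the first group did not detect the probe, their background values enter its mean, and the figure is not a strict bound. The code was tested on simulated data. Promoter windows came from RefSeq (GRCm38.p6) and were aligned with Biopython 1.88.

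Every family gene is named, along with fixed gene lists. The 8 genes most correlated with each tested probe were found, and the closest are given for some probes. The members, lists and rules were chosen with earlier results of these data known. Sequences of the probes were not used here. For arrays, the number of arrays limits the precision.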

Additional observations from a re-analysis of the deposited data

Results flagged for a closer look

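In 5 of 64 sets of a tested probe's values within a group of 4 or 5 arrays, 1 array stood apart from the rest by Dixon's criterion, which chance alone meets in about 1 in 20 sets. The array with the label Fshr mutant/Lhr null replicate 2 stood high in 4 of them. Its log2 level was 7.00 for Klk1b21 on ILMN_2651099 against a mean of 4.80 on the other 4 arrays, and 6.84 for Klk1b21 on ILMN_2732087 against 4.73. It was 8.37 for Klk1b24 on ILMN_1256024 against 6.19, and 8.59 for Klk1b27 on ILMN_1252131 against 6.19. The fifth was Fshr mutant replicate 2, with 7.48 for Klk1b21 on ILMN_2732087 against a mean of 6.89 on the other 3 arrays.

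The effect of the Fshr mutant allele differed between Lhr null and Lhr-intact testes for 12 probes, by limma's test of the interaction. On the log2 scale the interaction was 3.77 for Klk1b8, 3.46 and 3.73 for the 2 probes of Klk1b26, and 3.44 and 2.73 for the 2 of Klk1b9. It was 2.57 and 3.07 for the 2 tested probes of Klk1b5 and 2.00 for Klk1. It was 2.84 for Klk1b21 on ILMN_1219551, 1.93 for Klk1b24 on ILMN_1256024, and 2.11 and 2.51 for the 2 probes of Klk1b27. At the same threshold 57.7% of all probes tested were called. The 8 calls of Klk1b8, Klk1b26, Klk1b9, Klk1b5 and Klk1 held in each setting run, whereas the other 4 were lost with no background correction (adjusted p of 0.0511 to 0.117) and with array weights (adjusted p of 0.0534 to 0.131).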

How the results depend on the processing

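The calls in Lhr null against wild type testes (16), Fshr mutant against wild type testes (0), Fshr mutant/Lhr null against Lhr null testes (13) and the interaction (12) stayed within 1.5 times of these counts under each alternative run that kept all probes, and no called difference changed its sign. With the brightest probe per gene, 9 and 8 of 9 genes were called in Lhr null against wild type and in Fshr mutant/Lhr null against Lhr null testes. Leaving out 1 array at a time gave 16 to 16, 0 to 0, 12 to 13 and 9 to 13 calls. For Fshr mutant/Lhr null against wild type testes (0 calls) the counts were 2 with median scaling, 3 with no normalisation, 2 with array weights and 0 to 8 with 1 array left out. For Fshr mutant/Lhr null against Fshr mutant testes (0 calls) they were 1 with array weights, 1 with only the groups compared and 0 to 4 with 1 array left out. With 1 array left out, 13 to 274 of all probes were called against wild type testes and 1 to 81 against Fshr mutant testes. In 2 fits chosen after the data were seen, that against Fshr mutant testes gave 8 calls, and that with wild type testes 1, with only the groups compared and the array with the label Fshr mutant/Lhr null replicate 2 left out. They gave 7 and 3 when that array and wild type array 3 were left out. Counts over all probes are not given here for the fits chosen after the data were seen. The cause was not tested. The median over all probes of Fshr mutant/Lhr null against wild type testes was 0.02 on the log2 scale, -0.17 with median scaling and -0.31 with no normalisation. The share of called probes that were higher fell there to 2.63% and 1.94%, against 34.1%, and in Fshr mutant/Lhr null against Lhr null testes to 33.8% and 28.1%, against 41.5%.

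Same-numbered arrays of different groups did not deviate together (25 pairs, r of -0.35 to 0.24 about the group means, 5 of them over 0.1). With the replicate number as a block the counts of family calls were the same, 16, 0, 13, 0, 0 and 12 in the 6 comparisons, and 40 probes of the whole table were called in Fshr mutant/Lhr null against wild type testes, against 164. Levels near the lowest detected signal limit Klk1b22, Klk1b24, Klk1b27 and Klk1b21 on ILMN_2651099 and ILMN_2732087 in Lhr null testes, where no array detected them. They also limit Klk1, Klk1b5 on ILMN_1255129 and Klk1b9 on ILMN_2784773, each detected on 1 of 5 Lhr null arrays, and Klk1b21 on ILMN_1219551, detected on 2 of 5.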
